A study of Mus musculus with 20 samples.

Results

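The growth hormone axis of mouse liver is described here through 7 genes: the repressors Cux2, Bcl6 and Trim24, the receptor gene Ghr, the circulating growth factor gene Igf1 with its carrier gene Igfals, and the feedback inhibitor Socs2. They were chosen by name, and a gene was taken as measured where the platform annotation gave its symbol. Of the 7, 6 were measured, by 9 of the 23574 probes on the array. Igfals was not named by the annotation used and has no value here. Liver RNA of 20 C57BL/6J mice was hybridised to 20 arrays, 1 per animal, each against a common liver pool. The mice came from a cross in which the Y chromosome lacks the testis-determining gene Sry and an Sry transgene sits on an autosome. Gonadal type therefore varies apart from the sex chromosomes, and the 4 groups of 5 animals were XX Sry and XY-Sry (gonadal males) and XX and XY- (gonadal females). Every mouse, in all groups, ate chow with 4% fat, was gonadectomized at 8 weeks and was killed at 12 weeks after a 12 h fast. The males here thus differed from the females in having had testes rather than ovaries until that operation, and in carrying the transgene. The labels do not separate the one from the other.

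Growth hormone from the pituitary binds its receptor on hepatocytes, and the kinase JAK2 then activates the transcription factor STAT5. STAT5 turns on Igf1, Igfals and Socs2, and SOCS2 protein in turn damps signalling from the receptor. In intact rodents males secrete growth hormone in pulses and females more continuously, and this difference sets much of the sex bias of the liver. CUX2 is known as a female-biased liver factor that represses male-biased genes, and BCL6 as a male-biased repressor of female-biased genes that can occupy STAT5 sites. TRIM24 is a corepressor of nuclear receptors and is known as more abundant in female liver.

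Each value is a log2 ratio of an animal's liver to the pool, so 0 means the level of the pool, and values of different genes are not levels that can be set against each other. The file gives no log base. Base 10 was taken because the Y-linked genes Eif2s3y and Kdm5d then stood at 1.74 and 1.68 times the pool in 9 XY livers, against 1.18 and 1.16 times if base 2 were used, with a pool that holds livers with and without a Y chromosome. Under base 2 every log2 difference would shrink by the same factor, and tests and correlations would not change. The spread (SD) of log2 ratios within an array ran from 0.175 to 0.341, and 4 arrays, XX 2, XX 6, XY- 3 and XY- 12, exceeded 0.3. The library labelled XY- 30 had no Y-linked signal, with Eif2s3y at -3.90 and Kdm5d at -3.16, where the other 9 XY livers were at 0.57 to 1.34 and 0.14 to 1.37. Its X-linked Eif2s3x, at 0.51, lay above those 9 livers (-0.67 to 0.04) and inside the range of the XX livers (-0.28 to 0.72). It was kept under its label, as XY, except where it is said to be left out. Of the 190 pairs of arrays, 9 correlated below -0.3 over all probes, the lowest at -0.54. The labels put every liver in Cy5 and the pool in Cy3, and the low Y-linked ratios in XX livers run in that direction, which was kept. No label says how the animals were spread over litters or cages.

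Cux2 lies on mouse chromosome 5 (GRCm38.p6 chr5:121857962-122050415) and Bcl6 on chromosome 16 (chr16:23965050-23988866). RefSeq start-site windows of 300 bases, 250 before the start and 50 after it, were listed for 6 of the 7 genes, 12 windows in all. They were searched for TTCNNNGAA, the spaced palindrome that STAT5 and BCL6 both recognise, and for ATCGAT, a core bound by cut-homeodomain proteins such as CUX and ONECUT factors. Both motifs read the same on either strand, and no match overlapped another. TTCNNNGAA was present in 8.30% of 32851 such windows of the mouse annotation and ATCGAT in 0.925%. The window of Cux2 that held the ATCGAT match and the window of Bcl6 that held 3 TTCNNNGAA matches are shown, since Cux2 was the member that differed most clearly between gonadal types and Bcl6 the one that varied least. Both lie on the minus strand and capitals mark the matches.
Cux2, chr5:122047776-122048075: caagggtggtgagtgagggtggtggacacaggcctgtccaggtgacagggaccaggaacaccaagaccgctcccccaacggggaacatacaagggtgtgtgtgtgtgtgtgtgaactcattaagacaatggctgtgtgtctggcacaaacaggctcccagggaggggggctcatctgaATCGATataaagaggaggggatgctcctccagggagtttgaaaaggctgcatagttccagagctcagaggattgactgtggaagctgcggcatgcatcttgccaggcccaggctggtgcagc
Bcl6, chr16:23981234-23981533: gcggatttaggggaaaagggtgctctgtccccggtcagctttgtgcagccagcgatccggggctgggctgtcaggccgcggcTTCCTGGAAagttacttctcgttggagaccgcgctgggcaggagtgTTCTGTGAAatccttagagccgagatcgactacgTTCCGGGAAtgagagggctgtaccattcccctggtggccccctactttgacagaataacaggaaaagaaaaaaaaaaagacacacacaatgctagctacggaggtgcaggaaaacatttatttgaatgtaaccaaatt
The ATCGAT of Cux2 began at base 179 of its window. The TTCNNNGAA matches of Bcl6, TTCCTGGAA, TTCTGTGAA and TTCCGGGAA, began at bases 83, 129 and 163. The other Bcl6 window held 1 such match, TTCTCAGAA, and 2 of the 3 Igfals windows held 1 each. The windows of Trim24, Ghr and Igf1 held neither motif in these bases. A match describes the letters only.

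Cux2 rose in the gonadal males. The 5 XX Sry livers stood at -0.17 (animal 38), 0.53 (18), 0.58 (9), 0.38 (31) and 0.22 (32), and the 5 XY-Sry livers at 0.36 (19), 0.40 (27), 0.43 (20), -0.56 (5) and 0.38 (14). The XX livers stood at -0.84 (29), -0.61 (6), -0.35 (21), -0.40 (35) and 0.14 (2), and the XY- livers at -0.22 (12), -0.62 (30), -0.23 (24), -0.50 (3) and -0.99 (22). The gonadal types overlapped, but 8 of 10 males lay above every female, and the exceptions were XX Sry 38 and XY-Sry 5. The gonadal types did not overlap at all for 0.342% of features, none of them a member. Group means were 0.31 ± 0.30 in XX Sry, 0.20 ± 0.43 in XY-Sry, -0.41 ± 0.36 in XX and -0.51 ± 0.32 in XY- (SD, n = 5 each). The males exceeded the females by 0.72 ± 0.15 (SE) on the log2 scale, with a 95% interval of 0.41 to 1.03, which is 1.64-fold (1.32 to 2.04). This passed limma's test with Benjamini-Hochberg adjustment over all 21643 features (adjusted p = 0.0119). Cux2 was the only 1 of the 6 members called in either direction, where 3.74% of all features were called, 1.46% higher and 2.28% lower in males. By limma 4 of the 6, Cux2, Socs2, Ghr and Trim24, had an unadjusted p under 0.05, which 17.8% of all features had. Its direction is opposite to the female bias for which the gene is known in intact liver. Over 30 alternative settings, each array left out in turn included, the difference ran from 0.66 to 0.83 and stayed called in all 30. Here and in every count of 30, the fit without XY- 30 enters both by itself and among the arrays left out.

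**Figure D1:**
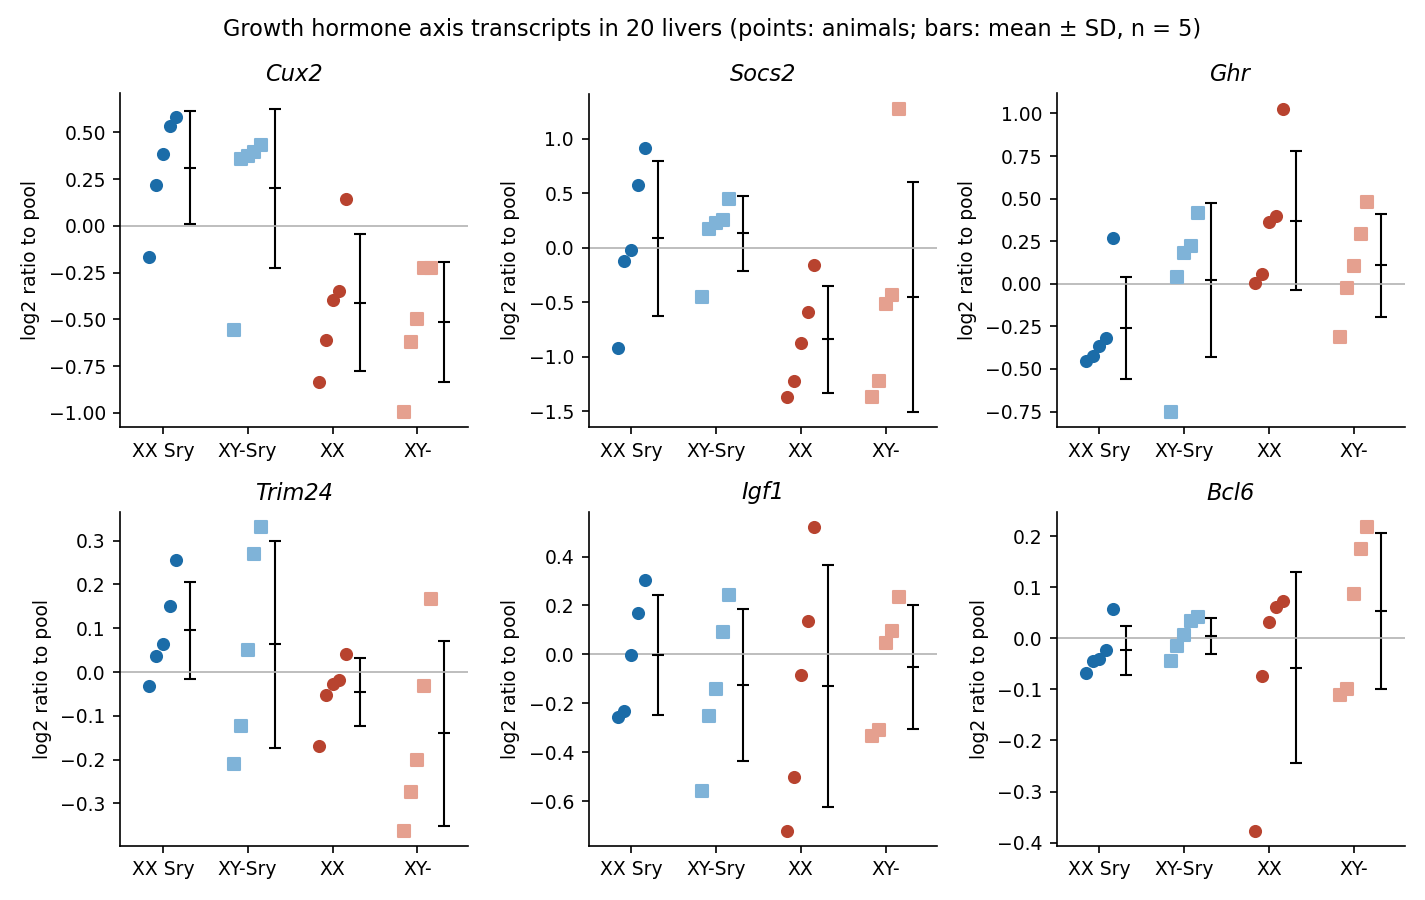
Log2 ratio to the pool (vertical axis) of 6 growth hormone axis genes in each of 20 livers, by group (horizontal axis). Points are animals and bars are the mean ± SD of 5 animals, and each panel has its own scale. For Cux2, 8 of 10 males lie above all females, while the Igf1 and Bcl6 groups lie across each other.

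The 2 other repressors differed less between the groups. Trim24 stood at -0.03, 0.26, 0.04, 0.15 and 0.06 in XX Sry and at 0.27, 0.33, 0.05, -0.21 and -0.12 in XY-Sry, with the animals in the order given for Cux2. It stood at -0.02, -0.17, -0.05, -0.03 and 0.04 in XX and at -0.03, 0.17, -0.36, -0.27 and -0.20 in XY-. Of the 10 males 3 lay above every female, and the male minus female difference of 0.17 ± 0.07 (SE) did not pass (limma adjusted p = 0.230). A second probe carries the Trim24 symbol on the platform, but its Entrez ID is not that of mouse Trim24. Its difference was 0.01. The probes correlated at r = 0.18 over the 20 arrays. The second varied little, with an SD within groups of 0.08, at the 6.06 percentile of all features. Whether it measures Trim24 was not tested, and only the first is called Trim24 here.

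Bcl6 was the flattest member. Its values were 0.06, -0.07, -0.05, -0.02 and -0.04 in XX Sry and 0.01, -0.02, -0.04, 0.04 and 0.03 in XY-Sry. The females spread more widely, at -0.07, 0.03, 0.07, -0.38 and 0.06 in XX and 0.22, -0.10, -0.11, 0.09 and 0.17 in XY-. All 10 males lay inside the range of the females. The difference was -0.01 ± 0.06 (SE), with a 95% interval of -0.13 to 0.11 and a limma adjusted p of 0.973. The SD of Bcl6 within groups, 0.12, was at the 35.2 percentile of all features, against 0.36 and the 91.7 percentile for Cux2.

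Ghr encodes the growth hormone receptor (chr15:3317755-3583352). It stood at -0.45, -0.37, 0.27, -0.42 and -0.32 in XX Sry and at 0.04, 0.22, -0.75, 0.42 and 0.18 in XY-Sry. In the females it stood at 0.36, 1.03, 0.01, 0.06 and 0.40 in XX and at -0.31, 0.48, -0.02, 0.29 and 0.10 in XY-. The males were thus low mainly in XX Sry, where 4 of 5 animals lay below every female, while in XY-Sry only animal 20 was low. The male minus female difference was -0.36 ± 0.16 (SE; 95% interval -0.68 to -0.03) and did not pass after adjustment (limma adjusted p = 0.229). It was -0.63 between XX Sry and XX and -0.09 between XY-Sry and XY-, and the test of this difference between differences gave -0.54 (95% interval -1.19 to 0.11, limma adjusted p = 0.9995).

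Igf1, the main hepatic product of growth hormone signalling (chr10:87858265-87937047), did not separate the groups. It stood at -0.00, -0.23, -0.26, 0.17 and 0.31 in XX Sry and at -0.25, 0.09, 0.24, -0.56 and -0.14 in XY-Sry. It stood at -0.08, -0.72, -0.50, 0.14 and 0.52 in XX and at 0.10, 0.23, -0.33, 0.05 and -0.31 in XY-. Both the lowest and the highest of the 20 livers were XX females, animals 6 and 2. The difference between gonadal types was 0.03 ± 0.14 (SE; 95% interval -0.27 to 0.33; limma adjusted p = 0.960).

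Socs2, induced by growth hormone through STAT5 and an inhibitor of its receptor's signal (chr10:95383903-95417321), varied most among the members. Averaged over its 3 probes it stood at -0.92, -0.02, 0.92, 0.58 and -0.13 in XX Sry and at 0.23, 0.45, 0.17, -0.45 and 0.25 in XY-Sry. It stood at -1.22, -1.37, -0.88, -0.59 and -0.15 in XX and at 1.28, -0.44, -0.51, -1.22 and -1.37 in XY-. Of the 10 females 9 lay below the pool, and the exception, XY- 12, was the highest of all 20 livers. The 3 probes followed each other at r = 0.85 to 0.97, and all 3 put XY- 12 far above the other females. Within groups the SD was 0.70, at the 99.2 percentile of all features.

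The difference in Socs2 between gonadal types was as large as that of Cux2, 0.76 ± 0.29 (SE; 95% interval 0.15 to 1.37), but did not pass (limma adjusted p = 0.164). Without XY- 12 it was 0.97 and passed (limma adjusted p = 0.0191), and without all 4 arrays of wide spread it was 0.94 and passed (adjusted p = 0.0443). Array XY- 12 also stood apart in other cells' genes: the mean log2 ratio of 14 Kupffer cell and macrophage markers was 1.55 there and at most 0.44 on every other array. Their part in the Socs2 value was not tested.

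Part of the immune cell markers fell in the gonadal males, where Cux2 rose. Of 14 measured Kupffer cell and macrophage markers (15 in the list) 6 fell in males and 0 rose, where 2.28% of all features fell and 1.46% rose. They were Cd5l (-1.18), Csf1r (-0.97), C1qa (-0.94), C1qc (-0.93), Clec4f (-0.82) and C1qb (-0.63), and the 8 not called ran from Marco at -1.12 to Cd163 at 0.32. Of 15 measured lymphocyte markers (18 in the list) 7 fell and 0 rose: Cd2 (-1.45), Cd3g (-1.11), Ptprc (-0.87), Klrb1c (-0.57), Cd3d (-0.46), Cd79b (-0.43) and Cd8a (-0.18). The other 8 ran from Cd3e at -0.10 to Gzma at 0.18, with Cd4 at 0.10. The median difference was -0.72 in the Kupffer list and -0.10 in the lymphocyte list, against 0.01 over all features. By limma 11 of the 14 Kupffer and 7 of the 15 lymphocyte markers had an unadjusted p under 0.05, against 17.8% of all features. The mean log2 ratio of the Kupffer list ran from -0.85 to -0.52 in XX Sry, -0.70 to 0.37 in XY-Sry, -0.16 to 0.44 in XX and -0.27 to 1.55 in XY-. That of the lymphocyte list ran from -0.23 to -0.12, -0.27 to -0.08, 0.04 to 0.32 and 0.01 to 0.56 in the same order. Of 11 stellate and endothelial markers (16 listed) 2 fell, Col1a1 (-0.87) and Pdgfrb (-0.39), while Dcn, Lrat, Pecam1 and Lyve1 were at -0.0046, 0.0047, -0.03 and 0.04. Of 5 measured genes of the bile duct list (9 listed) 1 fell, Krt8 (-0.36). The 4 not called were Krt18 (-0.16), Krt19 (-0.09), Epcam (-0.07) and Cldn7 (-0.04), so the list as a whole was not called lower. None of 10 measured hepatocyte markers (16 listed) was called by limma, and 2 had an unadjusted p under 0.05. The hepatocyte list's mean stayed between -0.20 and 0.22 on all arrays. The part of these cells in the members' differences was not tested, and in whole liver fewer cells of a type and less RNA per cell cannot be told apart. XY-Sry 5, the male with the lowest Cux2, had a Kupffer mean of -0.61 and a stellate and endothelial mean of -0.13. Both lay inside the range of the other males. Its hepatocyte mean of 0.22 was the highest of all arrays. Its lymphocyte mean of -0.27 and its mean of -0.21 for the bile duct list, Krt8 and Krt18 included, were the lowest of all arrays. The part of these cells in its Cux2 value was not tested. Ratios to a pool show no marker at 0, so absence of a cell type could not be read from them.

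The sex chromosomes left no member past the threshold. The XX minus XY difference was 0.11 for Cux2 (95% interval -0.21 to 0.42), -0.22 for Socs2 (-0.83 to 0.39), -0.01 for Ghr, 0.02 for Igf1, 0.06 for Trim24 and -0.07 for Bcl6. By limma 0 of the 6 were called, where 0.0277% of all features (6) were, a count that was 13 without XY- 30, and 0 reached an unadjusted p under 0.05, which 5.08% of all features did. The difference of Cux2 between gonadal types was 0.72 in XX animals (95% interval 0.28 to 1.16) and 0.71 in XY animals (0.27 to 1.16). Taken alone, neither passed (limma adjusted p = 0.134 and 0.262), nor did any other member in either, where 0.665% and 0.157% of features were called. Their difference was 0.01 with an interval of -0.62 to 0.63, so a difference within that interval cannot be told from 0. No feature was called for the interaction (0.0%), and 2.6% reached an unadjusted p under 0.05.

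**Figure D2:**
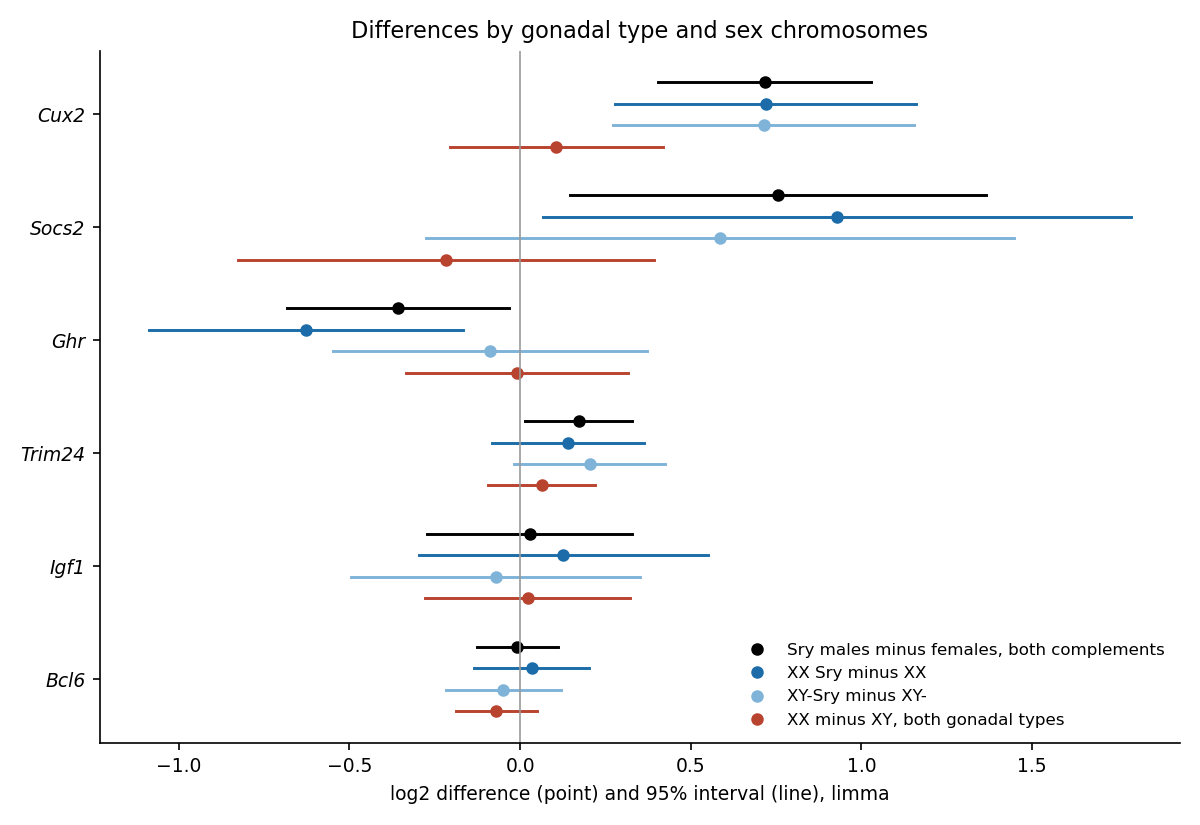
Log2 difference (points) and 95% interval (lines) of each member by limma: gonadal males minus females over both sex chromosome complements, the same within XX and within XY animals, and XX minus XY over both gonadal types. For Cux2 the gonadal difference is 0.72 in XX and 0.71 in XY animals, and the sex chromosome difference is 0.11.

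Across animals Socs2 followed Cux2. The 5 other members were each correlated with Cux2 over the 20 livers, which share the pool and each array's scaling. Permutation p-values are given without adjustment for the 5 genes. Socs2 gave r = 0.76 (permutation p = 1.5e-04) and Spearman's rho = 0.79 (permutation p = 8e-05). Leaving out the 2 livers farthest from the median of Cux2, XY- 22 and XX Sry 9, r was 0.68. With each group's mean taken out it was 0.71 (permutation p = 1.3e-04, permuted within groups). It was 0.77 in the 10 males (permutation p = 0.0106) and 0.62 in the 10 females (permutation p = 0.0599). The exception XY- 12 had Cux2 at -0.22 with Socs2 at 1.28, and without that array r was 0.89. Each Socs2 probe alone gave a similar value, 0.76, 0.72 and 0.71.

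Some animals that were unlike their group in Cux2 were unlike it in Socs2 as well. The males XX Sry 38 and XY-Sry 5 had the lowest Cux2 of their groups, -0.17 and -0.56, and the lowest Socs2, -0.92 and -0.45. Female XX 2 had the highest Cux2 of its group, 0.14, and the highest Socs2, -0.15. At the other end XY- 22 was the lowest of all 20 livers in Cux2, and its Socs2 of -1.37 was among the lowest. Other animals did not pair in this way: XX Sry 18 had Cux2 at 0.53 with Socs2 at -0.02, and XY- 12 had Cux2 at -0.22 with Socs2 at 1.28. These animals were picked from the same values that gave r. XY-Sry 5 also had the lowest Trim24 and Igf1 and the highest Ghr of its group.

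Among 11732 named genes Socs2 ranked 6 by r with Cux2, and 2 with group means taken out, where the median gene was at 0.01 and the 5th and 95th percentiles at -0.40 and 0.38. A limma fit with Cux2 as covariate, added after seeing the data, called 0 of 21642 features after adjustment (0.0%, and 5.89% at an unadjusted p under 0.05). The adjusted p of Socs2 in it was 0.217. With group means also fitted it was 0.967, and 4.2% of features reached an unadjusted p under 0.05. In the fit without group means, leaving out the 4 arrays of wide spread, 3 features were called, Socs2 among them (limma adjusted p = 0.0037). After quantile normalization Socs2 alone was called in that fit (limma adjusted p = 0.0049). With group means also fitted, Socs2 was called in neither setting (limma adjusted p = 0.9999 without the wide arrays and 0.414 after quantile normalization). The link of Socs2 with Cux2 therefore stood out as a single pair and did not pass over all features in the values as deposited.

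**Figure D3:**
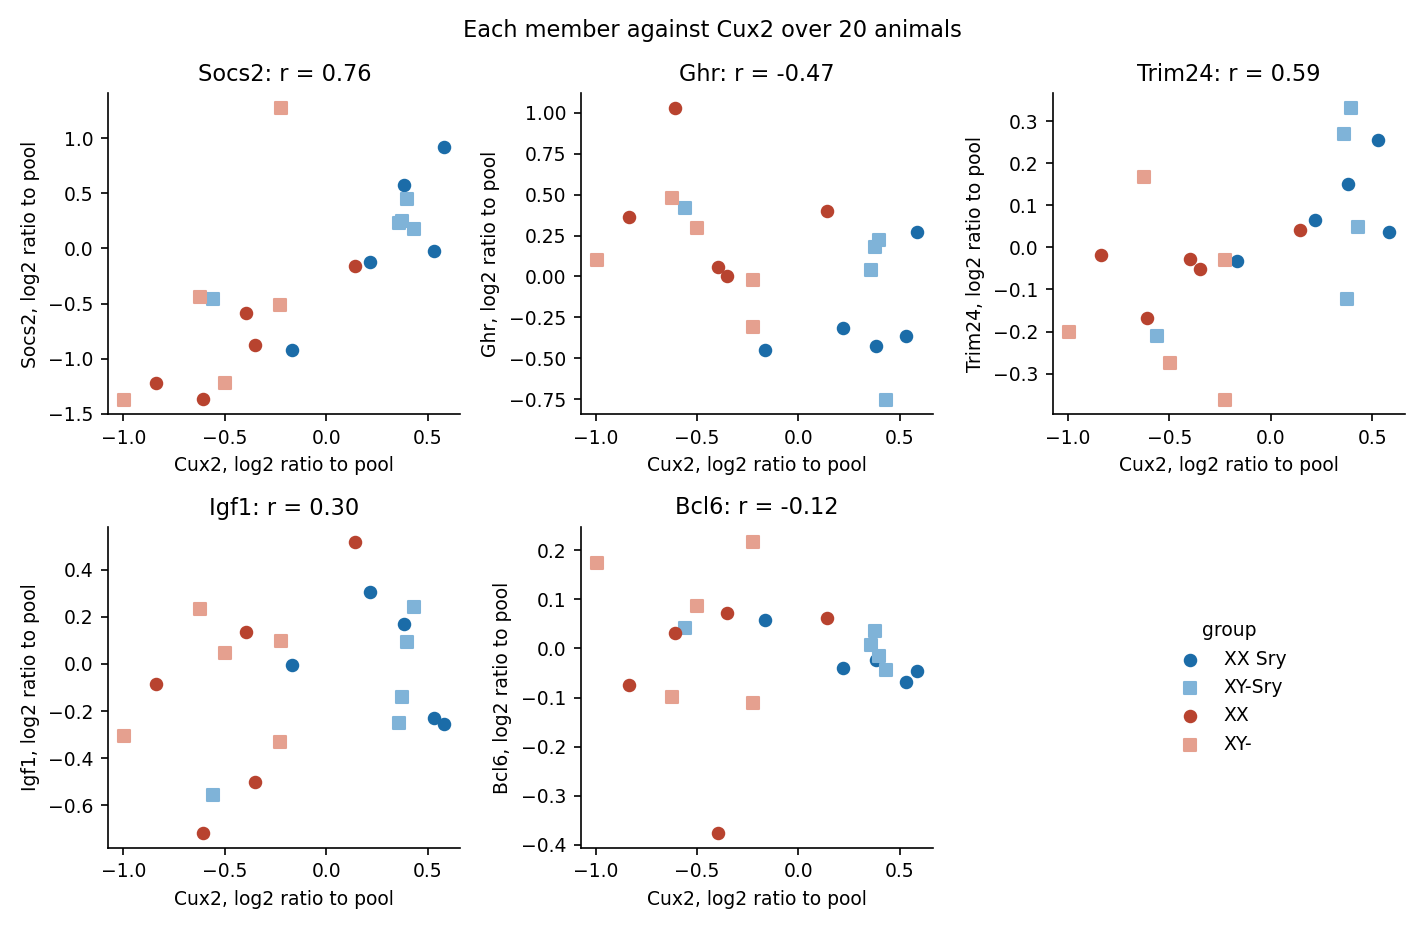
Log2 ratio to the pool of 5 members (vertical axes) against that of Cux2 (horizontal axes), 1 point per liver, coloured by group. Socs2 lies along a rising line (r = 0.76) except for XY- 12 at 1.28, and Bcl6 lies flat (r = -0.12).

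The other members were less tied to Cux2. Trim24 gave r = 0.59 (permutation p = 0.00671; rho = 0.55, permutation p = 0.0118), 0.57 without the 2 farthest livers, 0.64 in males (permutation p = 0.0458) and 0.10 in females (permutation p = 0.783). With group means taken out it was 0.37 (permutation p = 0.166), which did not pass, with a slope on Cux2 of 0.18 against 0.22 before. Ghr gave r = -0.47 (permutation p = 0.0354; rho = -0.52, permutation p = 0.0199) and -0.59 without the 2 farthest livers. It was -0.22 in males, -0.24 in females and -0.25 with group means taken out (permutation p = 0.340), none of which passed. Igf1 gave r = 0.30 (permutation p = 0.194; rho = 0.26, permutation p = 0.259), 0.33 without the 2 farthest livers, and 0.41 with group means taken out (permutation p = 0.115). Bcl6 gave r = -0.12 (permutation p = 0.632; rho = -0.18, permutation p = 0.458) and 0.06 without the 2 farthest livers. Bcl6 was at -0.72 in the males alone (permutation p = 0.0110) and at -0.02 in the females alone (permutation p = 0.954), over male values that span only -0.07 to 0.06. Whether the sexes differ in this was not tested. Over all features none of these 4 passed with Cux2 as covariate (limma adjusted p = 0.618 to 0.99994).

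**Figure D4:**
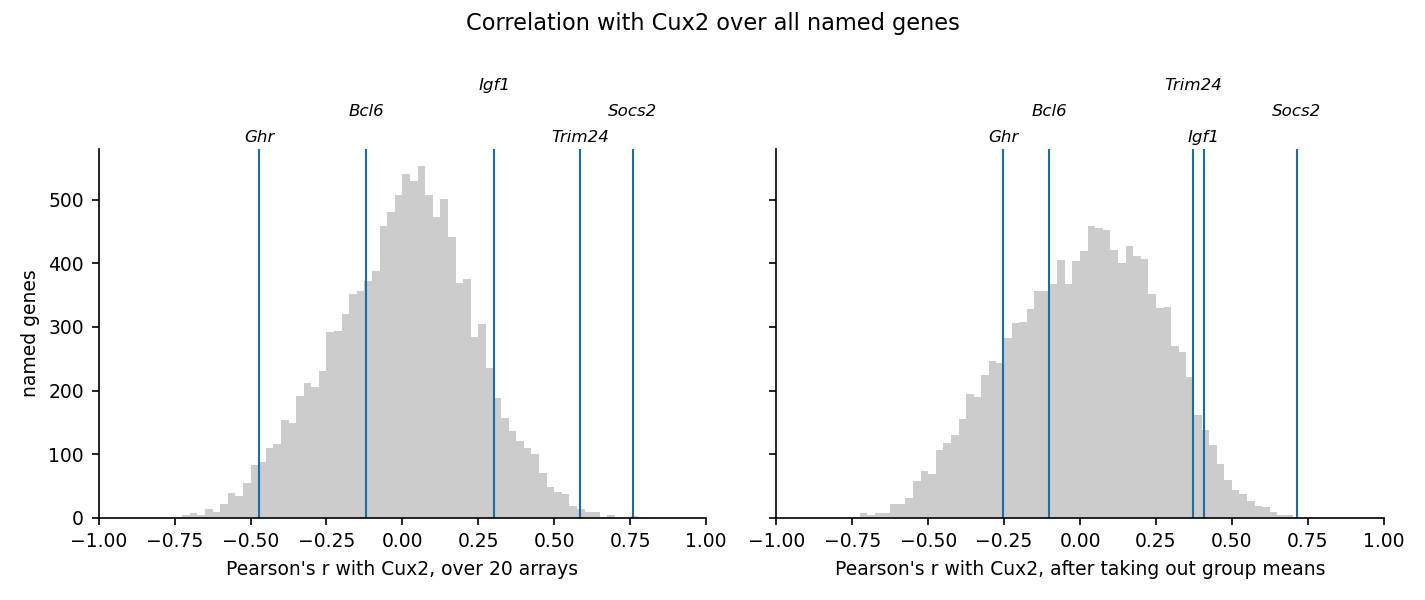
Number of named genes (vertical axis) by Pearson's r with Cux2 (horizontal axis), over 20 arrays on the left and with group means taken out on the right, with the 5 members marked by lines. Socs2 lies in the right tail of both, at 0.76 and 0.71, and Bcl6 near the middle.

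The named genes closest to Cux2 over the 20 arrays were Gpr1 (r = 0.81), Setd4 (0.79), the drug transporter gene Abcb1b (0.79), the interleukin receptor gene Il12rb1 (0.76) and the peroxisomal lyase gene Hacl1 (0.76). Those farthest were Cenpm (r = -0.73), the sulfotransferases Sult2a1 (-0.73) and Sult3a1 (-0.72), Tenm3 (-0.71) and the cytochrome P450 Cyp2b13 (-0.71). With group means taken out the closest were Tgm1 (r = 0.77), Socs2 (0.71), Ap1g2 (0.69), Cemip (0.69) and 4930467E23Rik (0.68), and the farthest were Cttn (-0.73), LRP10 (-0.72), Olfr1301 (-0.72), PIGZ (-0.71) and Nemp1 (-0.71). Sult2a1 and Sult3a1 then had r = -0.06 and -0.18, so their pooled values were not seen with the group means out. Between the members other than Cux2, 10 pairs were correlated, from r = -0.40 for Ghr with Socs2 to 0.51 for Trim24 with Socs2.

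Lists of pathway genes are set beside the 1.46% of all features that rose in males and the 2.28% that fell. They hold members too, which are counted again here: Ghr in the receptor list, Socs2 among the inhibitors and Igf1 in the insulin-like growth factor system. Cux2, Bcl6 and Trim24 are among the transcription factors and corepressors, and Igf1, Socs2, Bcl6 and Ghr among the STAT5 targets. Egfr is in several lists. Of 17 measured genes of the receptor and JAK-STAT list (20 listed) 1 rose in males and 0 fell, with a median difference of -0.04, where the median of all features was 0.01. An unadjusted p under 0.05 was reached by 5 of these 17, by 4 of 16 inhibitors and by 4 of 15 genes of the insulin-like growth factor system, against 17.8% of all features. Ghr was among those 5 and Socs2 among the 4 inhibitors. The gene that rose was Irs2, an adaptor of insulin receptor signalling, by 0.84 ± 0.21 (SE; limma adjusted p = 0.0357), a call kept in 17 of 30 alternative settings. Egfr, known to depend on growth hormone in liver, was at -0.58 (limma adjusted p = 0.0787), Stat5a at -0.49 (adjusted p = 0.153), Stat5b at -0.07 and Jak2 at -0.20 (adjusted p = 0.361). Of 16 measured inhibitors (18 listed) 0 rose and 2 fell, with a median of 0.01: Socs1, a suppressor of cytokine signalling, at -0.55 (limma adjusted p = 0.0361), and Ptpn6, a phosphatase abundant in blood cells, at -0.28 (adjusted p = 0.0361). These calls were kept in 19 and 21 of 30 alternatives, and part of the immune markers described above fell in males too. The part of those cells in the 2 genes was not tested. Cish, another STAT5 target, was at 0.01 and Socs3 at -0.06.

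Of 15 measured genes of the insulin-like growth factor system (16 listed) 0 rose and 2 fell, with a median of 0.01. They were Igfbp7, a secreted binding protein, at -0.40 (limma adjusted p = 0.0204), and the protease gene Htra1 at -0.28 (adjusted p = 0.0247). Of the 11 stellate and endothelial markers 2 fell as well and 9 were not called, and the part of those cells in Igfbp7 and Htra1 was not tested. Igfbp1, a hepatic binding protein that rises in fasting, was at 0.78 ± 0.39 (SE; limma adjusted p = 0.312), and Igfbp3, the partner of IGF1 and the Igfals product in blood, was at 0.00. Among 25 measured liver transcription factors and corepressors (32 listed) Cux2 was the only 1 called, and the median was 0.03. Foxa1 was at 0.28 (limma adjusted p = 0.0704), Hnf4a at 0.02 and Onecut1 at -0.07. Of 14 measured STAT5 targets (21 listed) 0 were called by limma, and 5 had an unadjusted p under 0.05, the members Socs2 and Ghr among them. Serpina6, the corticosteroid-binding globulin gene, was at -0.68 (limma adjusted p = 0.0739).

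Of the genes known as sex-biased in intact liver, 2 of 19 male-biased and 7 of 33 female-biased genes were called, where 3.74% of all features were (1.46% higher and 2.28% lower in males). Both lists were chosen with earlier results of these data known, and the female-biased list holds the members Cux2 and Trim24. These counts are therefore no independent measure of an excess over that share. Among the 19 measured male-biased genes (32 listed) 2 rose in males, Cyp2d9 by 1.83 and Nat8 by 1.59 (limma adjusted p = 0.00190 for Nat8), and 0 fell. By limma 8 of the 19 had an unadjusted p under 0.05, against 17.8% of all features. Beside the 2 called, Cyp7b1 was higher in males, at 0.47 (adjusted p = 0.0593). The others were lower in males and not called: Egfr (-0.58), Nudt7 (-0.39), Selenbp2 (-0.27), Slco1a1 (-0.21) and Gna14 (-0.11). Elovl3, Cyp4a12a and Hsd3b5 were at 0.17, 0.08 and -0.17. Among the 33 measured female-biased genes (46 listed) 5 fell in males: Sult2a1 at -3.69, A1bg at -2.44, Sult3a1 at -1.96, Hao2 at -1.47 and Cyp2b13 at -0.46. The call of Hao2 was kept in 16 of 30 alternatives. By limma 14 of the 33 had an unadjusted p under 0.05. Of these, Cyp39a1 (0.76), Acot3 (0.57), Cyp4a14 (0.46) and Trim24 (0.17) were higher in males but not called. Slc22a27 (-0.52), Cd36 (-0.46) and Gas6 (-0.38) were lower in males but not called. The 26 not called also included Cyp3a41a at -0.05 and Cyp2b9 at -0.09. From the same list 2 rose, Cux2 itself and Fmo2, a flavin monooxygenase, by 1.03. With the sex chromosomes 0 genes of any of these 7 lists were called by limma, and 2 genes, 1 in each of 2 lists, had an unadjusted p under 0.05. The median r with Cux2 was -0.02 in the male-biased list and -0.15 in the female-biased list, against 0.01 over all named genes.

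**Figure D5:**
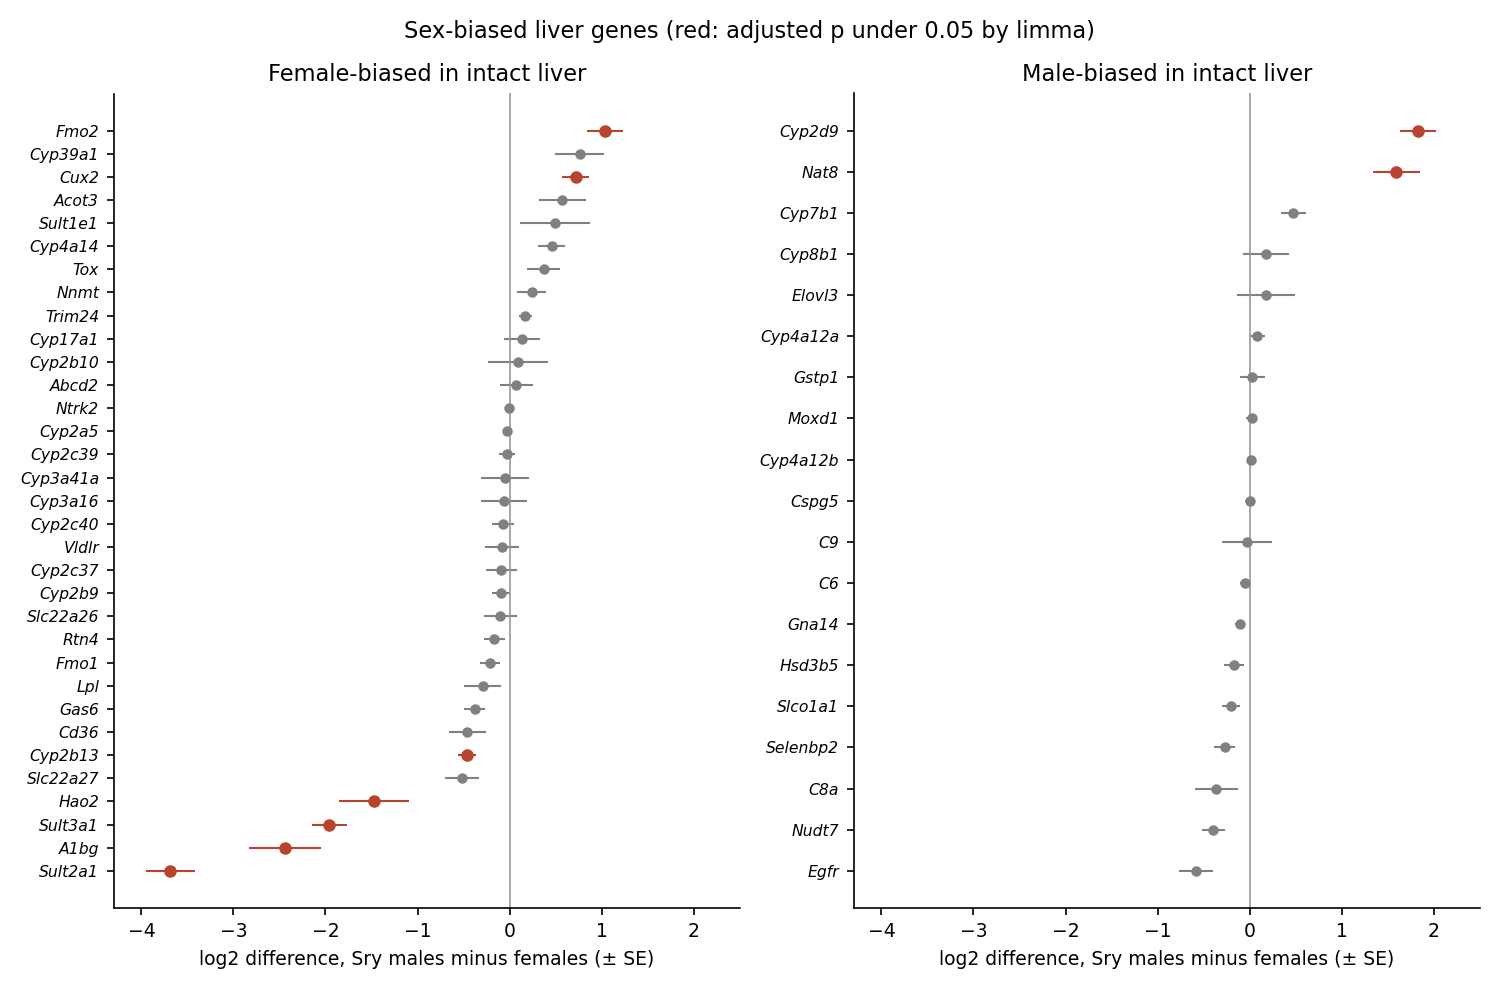
Log2 difference, gonadal males minus females, with its SE, for 33 female-biased and 19 male-biased liver genes (rows); red marks an adjusted p under 0.05 by limma. Among the female-biased genes Fmo2 lies farthest right at 1.03, before Cyp39a1 (0.76, not called) and Cux2 (0.72). Sult2a1 at -3.69 is the lowest.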

How the data were processed

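The authors deposited 1 table of log10 ratios of liver (Cy5) to a pool (Cy3) for 23574 probes on 20 arrays; its scale and base are inferred, and software and background correction are not given in the sources used here. Values end at a limit of 2 (29 values), and 2 are missing. Pool composition is given as 17 mice or as equal parts of each sample. The ratios were turned to log2. Probes were named through RefSeq (12662 by Entrez ID, 4 by accession, 999 by platform symbol only, 48 with several genes); 9861 were not listed. Probes of a gene were averaged, giving 21643 features, 11734 named. Groups were compared with limma 3.58.1 (R 4.3.3; lmFit, eBayes, a mean for each of 4 groups), Benjamini-Hochberg over all features, threshold 0.05. Correlations used 100000 two-sided permutations, and their p-values were not adjusted for the number of genes. Alternatives were scale and quantile normalization, median centring, array weights, robust eBayes, single probes, other filters and arrays left out. The fits were tested on simulated data. Members, lists and tests were chosen with earlier results of these data known. Genes named are all members, up to 6 genes a list and direction past the threshold with up to 3 others of low p, and the 5 highest and lowest correlated with Cux2. Stat5b, Jak2, Igfbp1, Igfbp3, Cish, Socs3, Hnf4a, Onecut1, Elovl3, Cyp4a12a, Hsd3b5, Cyp3a41a, Cyp2b9, Cd8a, Marco, Cd163, Cd3e, Gzma, Cd4, Dcn, Lrat, Pecam1 and Lyve1 were chosen after their values were seen. So were Selenbp2, Slco1a1, Gna14, Acot3, Slc22a27 and Cd36. No label says that animals came from separate litters, so p-values measure the spread between these animals. The number of arrays limits precision.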

Additional observations from a re-analysis of the deposited data

Results flagged for a closer look

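Cux2 in XY-Sry had a lowest animal far from the rest: XY-Sry 5 stood at -0.56 where the other 4 stood at 0.36 to 0.43, a gap that was 0.928 of the group's range. Without that animal the difference of Cux2 between gonadal types was 0.81 in place of 0.72. Ghr in XX Sry had a highest animal far from the rest: XX Sry 9 stood at 0.27 where the other 4 stood at -0.45 to -0.32, a gap of 0.815 of the range. These were 2 of the 24 combinations of gene and group examined, and chance gives about 1 in 20.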

How the results depend on the processing

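Cux2 kept its call between gonadal types in all 30 alternatives (0.66 to 0.81 with each array left out; limma adjusted p = 0.00276 to 0.0287). The members called numbered 1, or 2 (Cux2 and Socs2) without the 4 arrays of wide spread, and 1 to 2 with each array left out, 2 without XY- 12. Values near 0 turned sign: Bcl6 between gonadal types was 0.059 without the wide arrays, 0.000827 after scale normalization and 0.031 with array weights; Ghr by sex chromosomes was 0.038 without XY- 30; the interaction of Cux2 was -0.0081 after median centring and -0.11 with array weights, and that of Socs2 -0.074 with array weights. With each array left out, the gonadal difference ran from -0.048 to 0.013 for Bcl6 and -0.046 to 0.11 for Igf1. The sex chromosome difference ran from -0.105 to 0.041 for Ghr and -0.059 to 0.096 for Igf1, and the interaction from -0.184 to 0.144 for Cux2, -0.14 to 0.00314 for Trim24 and -0.090 to 0.594 for Socs2.

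The correlation of Socs2 with Cux2 was 0.62 in females alone. Its unadjusted permutation p was under 0.05 in every other setting run. That of Trim24 was 0.37 with group means out and 0.10 in females; that of Bcl6 was -0.72 in males alone and ran from -0.318 to 0.034 with each array left out. That of Ghr had an unadjusted permutation p under 0.05 in the values as deposited. It did not with group means out (-0.25), without XY- 30 (-0.44), without the wide arrays (-0.47) or after scale normalization (-0.42). Nor did it in males (-0.22) or in females (-0.24). With each array left out the correlation of Ghr ran from -0.54 to -0.41.

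List counts between gonadal types also moved. The receptor list had 0 called without the wide arrays, after scale normalization, with array weights and with single probes, and 2 among features above the median SD. STAT5 targets had 1 called without XY- 30, without the wide arrays and after scale normalization, and 2 among features above the median SD. Male-biased genes had 4 called among those features, and transcription factors 2 with array weights. With each array left out the count ran from 0 to 2 in the receptor list, 0 to 3 among inhibitors, 1 to 2 in the IGF system, 1 to 2 among transcription factors and 0 to 1 among STAT5 targets. Over all features the 809 calls between gonadal types, the base of the shares given beside each count, became 1217 after scale normalization and 1556 with array weights. With each array left out they ran from 393 to 1129: 393 without XY-Sry 19, 404 without XX Sry 31, 481 without XX Sry 18, 493 without XX 2 and 532 without XY-Sry 27. The 6 calls by sex chromosomes became 13 without XY- 30, 12 after scale normalization or with array weights, 0 without the wide arrays, and 2 to 13 with each array left out. No paired analysis was possible because the groups share no animal numbers. Bcl6 has no value among features above the median SD.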
